A study of Mus musculus with 16 samples.

Results

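The miR-23, miR-27 and miR-24 microRNAs of the mouse come from a pair of paralogous clusters, and 10 of their mature arms were followed here through 3 days of muscle differentiation. They were chosen by name: miR-23a-3p, miR-27a-3p, miR-27a-5p and miR-24-2-5p from the a cluster, miR-23b-3p, miR-23b-5p, miR-27b-3p, miR-27b-5p and miR-24-1-5p from the b cluster, and miR-24-3p, which both clusters yield. They are 10 of the 2274 microRNA names read in these libraries, and all 10 were among the 807 names with enough reads to be tested. Small RNA was sequenced in 16 libraries of C2C12, muscle precursor cells of the mouse that can be grown as a line and that fuse when serum is withdrawn. The 4 groups had 4 libraries each. Control cells were wild-type and came as 2 populations. Triple knockout cells (tKO) came as 2 lines, each grown from 1 clone, in which the 3 genes miR-1a-1, miR-1a-2 and miR-206 were deleted. All cells of both genotypes were labelled negative for PAX7. Growth medium (GM) held 20% fetal bovine serum and cells were taken near 80% confluency, and differentiation medium (DM3) held 2% horse serum for 3 days. Each line gave 2 biological replicates in each medium, so a group holds 2 lines and not 4, and the p-values below measure the spread between libraries. In such bulk RNA, fewer cells of a type and less of an RNA per cell cannot be told apart.

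A microRNA is cut from a hairpin precursor, first by Drosha in the nucleus and then by Dicer, which leaves a duplex of a 5p and a 3p arm. One arm is usually kept in an Argonaute protein, where its seed, bases 2 to 8, pairs with target messages, and the other arm is mostly lost. The kept arm can be trimmed or can gain untemplated A or U at its 3′ end, the work of terminal nucleotidyl transferases. In muscle, miR-27 is known to target Pax3 and myostatin, miR-23a targets the ubiquitin ligases of atrophying muscle, Trim63 and Fbxo32, and miR-24 has been studied as a promoter of myoblast differentiation.

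The mature sequences show which members can act on the same targets and which base tells the copies apart. They are given from RefSeq with GRCm38.p6 as its build, which held 9 of the 10 members, and the seed is in capitals. The 3p arms, which carried most reads, are these, without miR-23b-3p, the member that had no RefSeq mature entry.
miR-23a-3p: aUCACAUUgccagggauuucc
miR-27a-3p: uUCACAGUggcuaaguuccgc
miR-27b-3p: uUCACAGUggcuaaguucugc
miR-24-3p: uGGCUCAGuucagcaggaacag
The 5p arms are shown because miR-27a-5p and miR-24-1-5p changed with differentiation and their copies miR-27b-5p and miR-24-2-5p were not called.
miR-27a-5p: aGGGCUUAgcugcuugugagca
miR-27b-5p: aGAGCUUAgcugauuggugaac
miR-24-2-5p: gUGCCUACugagcugaaacagu
miR-24-1-5p: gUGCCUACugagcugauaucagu
miR-27a-3p and miR-27b-3p share the seed UCACAGU, and miR-24-1-5p and miR-24-2-5p share UGCCUAC, while miR-27a-5p and miR-27b-5p have different seeds. The miR-27 3p copies differ at 1 base only, shown here in capitals.
miR-27a-3p: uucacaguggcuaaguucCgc
miR-27b-3p: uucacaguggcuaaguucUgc
That base is number 19 from the 5′ end, outside the seed, and the 3p copies of miR-23 also share their seed and differ at position 19 only, so every read that tells an a copy from a b copy must reach base 19.

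The a cluster lies on chromosome 8 of GRCm38, plus strand, at chr8:84208518-84208921, where Mir23a, Mir27a and Mir24-2 fit into 404 bases. Mir23a and Mir27a overlap no annotated gene, and Mir24-2 overlaps an exon of the long noncoding RNA Gm26532 and, on the other strand, Mir3074-2. The b cluster lies on chromosome 13, plus strand, at chr13:63300484-63301275, spread over 792 bases within the protein-coding gene 2010111I01Rik and antisense to Fancc. Mir27b and Mir24-1 overlap exons of 2010111I01Rik, Mir23b lies outside its exons, and Mir24-1 overlaps Mir3074-1 on the minus strand.

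The libraries held from 112792 to 6543570 reads listed under microRNA names. The smallest, the tKO DM3 library of line 1 replicate 1, stood apart: 45.1% of its reads matched the hairpin they were named for, 18.9% were shorter than 18 nt, and 35.4% fell to miR-6240 and miR-6236. In the control DM3 library of line 1 replicate 2 these values were 65.9%, 12.8% and 17.1%, and in the other libraries 76.9% to 88.5% of reads matched. The matched share was 86.4% to 88.5% in growing control cells and 65.9% to 82.7% once they had differentiated. It was lower in every control DM3 library than in any control GM library. In the tKO it was 80.1% to 88.5% before and 45.1% to 86.6% after, ranges that overlap, and in replicate 2 of both lines it was slightly higher in DM3 than in GM. Its part in the differences between media was not tested. The labels held: miR-206-3p was at 837 to 1466 CPM (reads scaled by the library total) in control GM and 19951 to 57442 in control DM3, against 0.808 to 15.5 and 0.960 to 70.9 in the tKO. The summed muscle microRNAs (miR-206-3p, miR-1a-3p, miR-133a-3p and miR-133b-3p) rose from 849 to 1490 CPM in control GM to 23024 to 59598 CPM in control DM3, while those of blood cells stayed at or below 16.8 CPM and those of endothelium at or below 27.9 CPM. Of the muscle names not deleted, miR-133a-3p was at 65.8 to 762 CPM in tKO DM3 against 1130 to 2190 CPM in control DM3. miR-133b-3p was at 24.7 to 200 CPM against 347 to 738 CPM. The summed epithelium list was higher in every tKO GM library (17.8 to 35.2 CPM) than in any control GM library (9.76 to 16.9 CPM), and stood at 8.87 to 41.6 CPM in tKO DM3 against 2.51 to 10.8 CPM in control DM3. Of the neuron list, miR-124-3p had no reads under that name in any library, so miR-9-5p alone carried it. It moved with the genotype, at 98.1 to 156 CPM in control GM and 52.4 to 106 CPM in control DM3 against 4.04 to 12.8 and 0 to 21.6 CPM in the tKO. The liver microRNA miR-122-5p moved with the medium, at 3.90 to 27.6 CPM in control GM and 17.8 to 75.5 CPM in tKO GM against at most 8.96 CPM in DM3. The part of these lists in the results was not tested.

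By group mean the members made up a larger part of the library after differentiation, and names from the b cluster made up most of the difference. All 10 together held 6.78% ± 0.86 of reads in control GM and 11.3% ± 1.22 in control DM3 (SD, n = 4 in this and the following values), and 5.64% ± 0.97 and 10.1% ± 3.92 in the tKO. The media overlapped in the tKO: the smallest library, DM3 line 1 replicate 1, held 5.34%, below the GM libraries of line 2 at 6.18% and 6.66%. The names from the b cluster alone went from 2.77% ± 0.07 to 6.18% ± 0.88 in control cells and from 1.84% ± 0.52 to 5.35% ± 2.53 in the tKO. In control cells miR-27b-3p carried most of that difference, with a mean of 21973 CPM in GM and 55264 CPM in DM3, beside 5468 and 6264 CPM for miR-23b-3p. The names from the a cluster alone differed less, at 1.93% and 2.54% in control cells and 1.91% and 2.04% in the tKO. By family, the miR-27 3p copies summed to 3.52% of reads in control GM and 7.55% in control DM3, the miR-23 3p copies to 0.910% and 0.866%, and miR-24-3p to 2.07% and 2.59%. These shares are of all listed reads and carry no test.

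**Figure D1:**
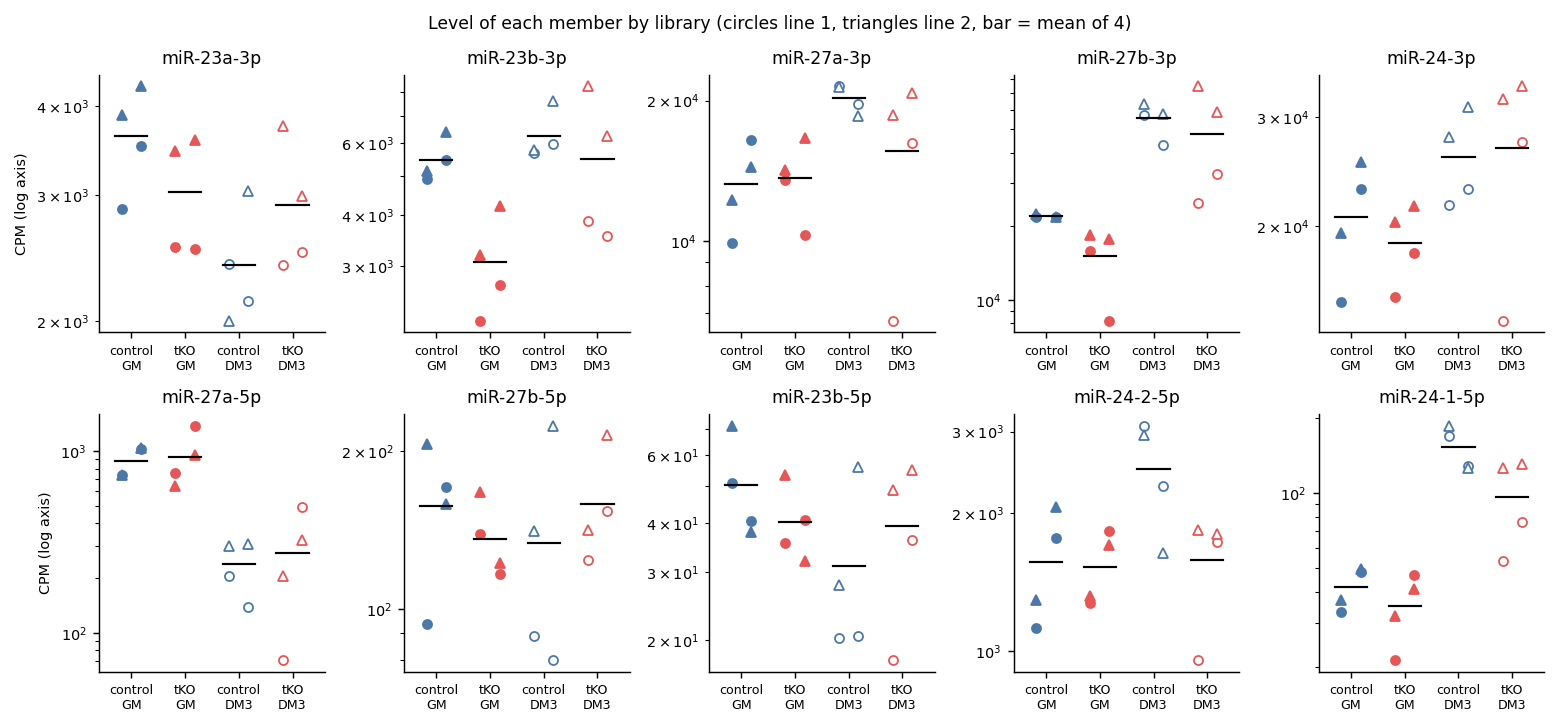
CPM of the members in each of the 16 libraries (log axis), by group, with control in blue and tKO in red, GM filled and DM3 open, circles for line 1, triangles for line 2 and a bar at the group mean of 4 libraries. miR-27a-5p falls and miR-24-1-5p and miR-27b-3p lie higher in DM3 than in GM in both genotypes, while genotypes overlap in DM3.

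In control cells, differentiation lowered miR-27a-5p and miR-23a-3p and raised miR-24-1-5p. By the quasi-likelihood test of edgeR, adjusted over the 807 names by Benjamini-Hochberg, 3 of the 10 members changed, 1 higher and 2 lower, where 27.6% of all names tested changed. The members' median log2 difference was -0.11, beside 0.02 over all names. A share near that of all names says nothing particular of the members.

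miR-27a-5p, the passenger arm of the Mir27a hairpin, was at 742, 740, 1021 and 1035 CPM in control GM and at 206, 301, 139 and 308 CPM in control DM3. Every DM3 library was below every GM library. The fall was 4.72-fold (log2 -2.24, SE 0.47, edgeR adjusted p = 0.00145). It was the 1 call of the 3 that held both with no filter on low counts and with the replicates of a line summed (adjusted p = 0.00011 and 0.00164).

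miR-24-1-5p, the 5p arm of the b cluster's miR-24 hairpin, moved the other way. It was scarce in control GM, at 33.2, 37.1, 48.0 and 49.7 CPM, and reached 169, 186, 128 and 126 CPM in DM3. The groups did not overlap, and the rise was 2.71-fold (log2 1.44, SE 0.39, edgeR adjusted p = 0.00827). Its a-cluster counterpart with the same seed, miR-24-2-5p, was at 1126 to 2062 CPM in GM and 1634 to 3093 CPM in DM3 (log2 0.24, adjusted p = 0.609). Of the reads listed as miR-24-1-5p, 0% to 18.9% per library matched the Mir24-2 hairpin over more bases. With reads reassigned by hairpin match, the rise was 1.46 on the log2 scale (adjusted p = 0.00502). The call was lost with no filter on low counts (1.17, adjusted p = 0.152) and with the replicates of a line summed (1.23, 0.0975).

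miR-23a-3p was at 2874, 3888, 3518 and 4264 CPM in control GM and at 2406, 2003, 2131 and 3042 CPM in control DM3. The highest DM3 library exceeded the lowest GM library, so the groups overlapped, and the fall was 1.98-fold (log2 -0.98, SE 0.32, edgeR adjusted p = 0.0265). This call was the weakest of the 3. It was lost when any 1 of 6 control libraries was left out: GM line 1 replicate 2 (log2 -1.08, adjusted p = 0.0608), GM line 2 replicates 1 (-0.89, 0.119) and 2 (-1.0, 0.0805), DM3 line 1 replicates 1 (-0.93, 0.0850) and 2 (-0.98, 0.0986) and DM3 line 2 replicate 1 (-0.97, 0.0968). With scaling by total reads, which moved the median log2 difference of all names from 0.02 to 0.39 here, miR-23a-3p stood at -0.60 (adjusted p = 0.0705). It also missed the threshold with no filter (-1.21, adjusted p = 0.0811) and with the replicates of a line summed (-0.85, 0.253).

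miR-27b-3p, the most abundant member in every DM3 library, lay within 21774 to 22409 CPM in the 4 control GM libraries. In control DM3 it was at 56887, 63354, 43160 and 57653 CPM, above every GM library. Relative to all names this was 1.93-fold (log2 0.95, SE 0.39, edgeR adjusted p = 0.0810), which missed the threshold. With the line as a block, so that each line's DM3 libraries were compared with its own GM libraries, the difference was 0.92 and passed (adjusted p = 0.0208). It also passed with scaling by total reads (1.33, adjusted p = 0.00374) and with only the control libraries fitted (1.0, 0.0010), but not with the replicates of a line summed (0.98, adjusted p = 0.226) or with no filter on low counts (0.71, 0.374).

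The other members did not pass in control cells. miR-27a-3p stood at 0.21, miR-24-3p at -0.05, miR-23b-3p at -0.17, miR-27b-5p at -0.57 and miR-23b-5p at -0.94 (adjusted p = 0.145) on the log2 scale, of which scaling by total reads turned miR-23b-3p to 0.20 and miR-24-3p to 0.32. By libraries, 3 of the 10 members had DM3 and GM groups that did not overlap in scaled CPM (miR-27a-5p, miR-24-1-5p and miR-27b-3p), where 32.6% of all names did so. With 1 library left out, miR-27b-5p ranged from -1.20 to -0.34 and passed in 0 of 16 fits, and miR-23b-5p ranged from -1.72 to -0.63 and passed in 1. miR-23b-5p had 2 to 250 reads a library.

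In the tKO, miR-27a-5p also fell and miR-24-1-5p and miR-27b-3p rose. By edgeR 3 of the 10 members changed, 2 higher and 1 lower, where 19.7% of all names changed, and the members' median was -0.05 beside 0.01 over all names.

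miR-27a-5p was at 754, 640, 1378 and 952 CPM in tKO GM and at 70.9, 206, 492 and 325 CPM in tKO DM3. No DM3 library reached a GM library. The fall was 3.80-fold (log2 -1.93, SE 0.46, edgeR adjusted p = 0.00671). The value of 70.9 CPM is 8 reads of the smallest library (Wilson 95% interval 35.9 to 140 CPM, for counting error only), and without that library the difference was -1.58 (adjusted p = 0.00716).

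miR-27b-3p was at 15858, 18436, 8211 and 17794 CPM in tKO GM and at 24997, 74898, 32601 and 58481 CPM in tKO DM3, a rise of 2.61-fold relative to all names (log2 1.38, SE 0.40, edgeR adjusted p = 0.0185). The CPM values did not overlap between media, but the DM3 libraries spread widely, with both of line 2 above both of line 1. The call was lost without DM3 line 2 replicate 1 (1.07, adjusted p = 0.0863), DM3 line 2 replicate 2 (1.11, 0.0950) or GM line 2 replicate 2 (1.41, 0.0640). It was also lost with no filter (1.30, 0.0652), with the replicates of a line summed (1.57, 0.0677) and with only the tKO libraries fitted (1.42, 0.0755).

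miR-24-1-5p was at 21.4, 32.2, 46.7 and 41.1 CPM in tKO GM and at 53.2, 126, 76.6 and 130 CPM in tKO DM3, a rise of 2.47-fold (log2 1.30, SE 0.38, edgeR adjusted p = 0.0224). The 53.2 CPM are 6 reads. The call was lost without GM line 1 replicate 1 (1.17, adjusted p = 0.0793), GM line 2 replicate 1 (1.35, 0.0637), DM3 line 2 replicate 1 (1.16, 0.0694) or DM3 line 2 replicate 2 (1.0, 0.112), and likewise with no filter (1.24, 0.161), with the replicates of a line summed (1.35, 0.0933) and with only the tKO libraries fitted (1.36, 0.0762). The tKO fall of miR-27a-5p passed in those 3 fits (adjusted p = 0.00441, 0.0406 and 0.0331).

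The remaining tKO members did not pass: miR-23a-3p was at -0.33, miR-23b-3p at 0.59 (adjusted p = 0.253), miR-24-3p at 0.27, miR-27a-3p at -0.06, miR-24-2-5p at -0.17, miR-23b-5p at -0.16 and miR-27b-5p at -0.03, and scaling by total reads made the last 4 positive (0.19, 0.05, 0.05 and 0.23). In scaled CPM 1 of the 10 members had media that did not overlap, miR-27a-5p, where 19% of all names did. Without the tKO DM3 library of line 1 replicate 1, or without the control DM3 library of line 1 replicate 2, 3 members were called in the tKO. In control cells the count was 3 without the former and 2 without the latter, which lost miR-23a-3p.

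Whether differentiation acted differently in the tKO was tested as an interaction. By edgeR 0 of the 10 members passed and 0 had an unadjusted p under 0.05, where 0% of the 807 names passed and 37 had an unadjusted p under 0.05. The fall of miR-23a-3p and the rise of miR-27b-3p, each past the threshold in 1 genotype only, are thus not shown to differ between genotypes.

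Other microRNAs studied in myoblast differentiation give the setting. The list held 19 names: miR-26a-5p, miR-29a-3p, miR-29b-3p, miR-29c-3p, miR-31-5p, miR-125b-5p, miR-133a-3p, miR-133b-3p, miR-155-5p, miR-181a-5p, miR-181b-5p, miR-199a-3p, miR-214-3p, miR-221-3p, miR-222-3p, miR-322-5p, miR-378a-3p, miR-486a-5p and miR-503-5p. Under these names all but miR-199a-3p were tested. By edgeR 9 of these 18 changed in control cells (3 higher, 6 lower), beside 27.6% of all names, and 6 in the tKO (3 higher, 3 lower), beside 19.7%. In control cells the muscle microRNAs miR-133a-3p and miR-133b-3p rose by 6.99 and 6.66 on the log2 scale (adjusted p = 8.74e-06 each) and miR-378a-3p by 0.86 (adjusted p = 0.0180). miR-221-3p and miR-222-3p, which target the cell-cycle inhibitor p27, stood at -2.06 and -2.09 (adjusted p = 0.000366 and 0.000169), and miR-155-5p, miR-125b-5p, miR-31-5p and miR-29a-3p fell by 1.65, 1.5, 1.02 and 0.86. In the tKO the 6 were miR-133a-3p (6.29), miR-133b-3p (6.52), miR-378a-3p (1.13), miR-125b-5p (-1.29), miR-221-3p (-1.39) and miR-222-3p (-1.75).

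The deletion of miR-206 and miR-1a was followed by no called change in the level of any member. In GM, 0 of the 10 passed edgeR's test, where 1.12% of all names did, and 1 had an unadjusted p under 0.05. All 10 log2 differences were at or below 0 (median -0.32, beside 0.11 over all names), of which miR-27a-3p, at -0.02, turned positive under scaling by total reads (0.04), with DESeq2's size factors (0.04) and under 7 other alternatives, while that scaling moved the median of all names to 0.24. miR-27a-5p also turned positive under scaling by total reads and in both alternatives that kept only matching reads, and miR-24-2-5p in 1 of those.

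The gap was widest for miR-23b-3p. It was at 4900, 5130, 5445 and 6398 CPM in control GM and at 2204, 3187, 2698 and 4214 CPM in tKO GM, so that every tKO library lay below every control library. The difference of 1.89-fold had an unadjusted p of 0.0172 but did not pass after adjustment (log2 -0.92, SE 0.35, edgeR adjusted p = 0.365).

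miR-27b-3p, from the same cluster, was also lower in every tKO GM library (8211 to 18436 CPM) than in any control GM library, at -0.58 (adjusted p = 0.863). Without tKO GM line 1 replicate 2, the library at 8211 CPM, this difference was -0.31 (adjusted p = 0.995). The a-cluster arms stood nearer to control, miR-23a-3p at -0.35 (-0.17 without the same library) and miR-27a-3p at -0.02, with miR-24-3p at -0.23. The 2 members whose groups did not overlap in scaled CPM, miR-23b-3p and miR-27b-3p, were 2 of 10, beside 8.92% of all names.

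In DM3 the genotypes overlapped for all members: 0 of 10 were separated, where 4.71% of all names were. By edgeR 0 of the 10 members passed, where 0.867% of all names did, and 0 had an unadjusted p under 0.05. The widest differences were those of miR-24-2-5p, at -0.56 on the log2 scale (edgeR adjusted p = 0.492), and miR-24-1-5p, at -0.53 (edgeR adjusted p = 0.584). Of the 3p arms, miR-23a-3p stood at 0.30, miR-24-3p at 0.08, miR-27b-3p at -0.14, miR-23b-3p at -0.15 and miR-27a-3p at -0.30. Those of miR-24-3p, miR-27b-3p, miR-23b-3p and miR-27a-3p changed sign when some 1 library was left out. Without the smallest library miR-23b-3p, miR-27a-3p and miR-27b-3p stood at 0.12, 0.08 and 0.20. For miR-27a-3p the 4 control DM3 libraries were at 18573 to 21459 CPM and the tKO DM3 libraries at 6751, 18661, 16258 and 20723 CPM, the lowest being the smallest library.

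miR-24-3p, the arm that both clusters share, was called in neither genotype and in neither medium. It was at 15107, 19496, 23007 and 25359 CPM in control GM and at 21693, 27835, 22986 and 31062 CPM in control DM3. In the tKO it was at 15389 to 21566 CPM in GM and 14123 to 33578 CPM in DM3. The media overlapped within each genotype and the genotypes within each medium, while the highest tKO GM library, at 21566 CPM, lay just below the lowest control DM3 library.

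Because a ratio of copies within a library does not depend on scaling, the a and b copies were set against each other over 33 a/b pairs with at least 20 CPM per name. In both genotypes the balance moved to the b copy with differentiation. The ratio of a to b fell in 2 of the 3 member pairs in control cells, where limma called 27.3% of all such pairs, and in 3 of 3 in the tKO, where it called 18.2%. The pairs as a whole leaned the same way, with a median of -0.17 in control cells (6 of 9 called pairs lower) and -0.19 in the tKO (5 of 6 lower), so the direction is not shown to be particular to the members.

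For miR-23, the b copy made up 63.0%, 56.9%, 60.8% and 60.0% of the 3p reads of the pair in control GM and 70.3%, 74.3%, 73.7% and 71.5% in control DM3. It made up 46.5%, 47.9%, 51.7% and 54.0% in tKO GM and 61.8%, 68.8%, 58.7% and 67.6% in tKO DM3. The media did not overlap in either genotype. The a to b ratio fell by 0.80 on the log2 scale in control cells (SE 0.20, limma adjusted p = 0.0183) and by 0.85 in the tKO (SE 0.20, limma adjusted p = 0.00823), and it passed without each single library, as did the tKO ratio of miR-27 below. Without the tKO DM3 library of line 1 replicate 1 the tKO fall of miR-23 was 0.90 (adjusted p = 0.00564), and without the control DM3 library of line 1 replicate 2 the control fall was 0.77 (adjusted p = 0.0407).

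For miR-27, the b copy made up 68.7%, 64.6%, 57.2% and 60.1% of the 3p reads in control GM and 72.6%, 74.7%, 68.7% and 75.6% in control DM3. It made up 54.0%, 56.4%, 44.4% and 51.7% in tKO GM and 78.7%, 80.1%, 66.7% and 73.8% in tKO DM3. In control cells the highest GM and the lowest DM3 library met at 68.7%, and the ratio fell by 0.68 (SE 0.26, limma adjusted p = 0.0589), which did not pass, although it did with the replicate number as a block (adjusted p = 0.0234). In the tKO it fell by 1.5 (SE 0.26, limma adjusted p = 0.00126).

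**Figure D2:**
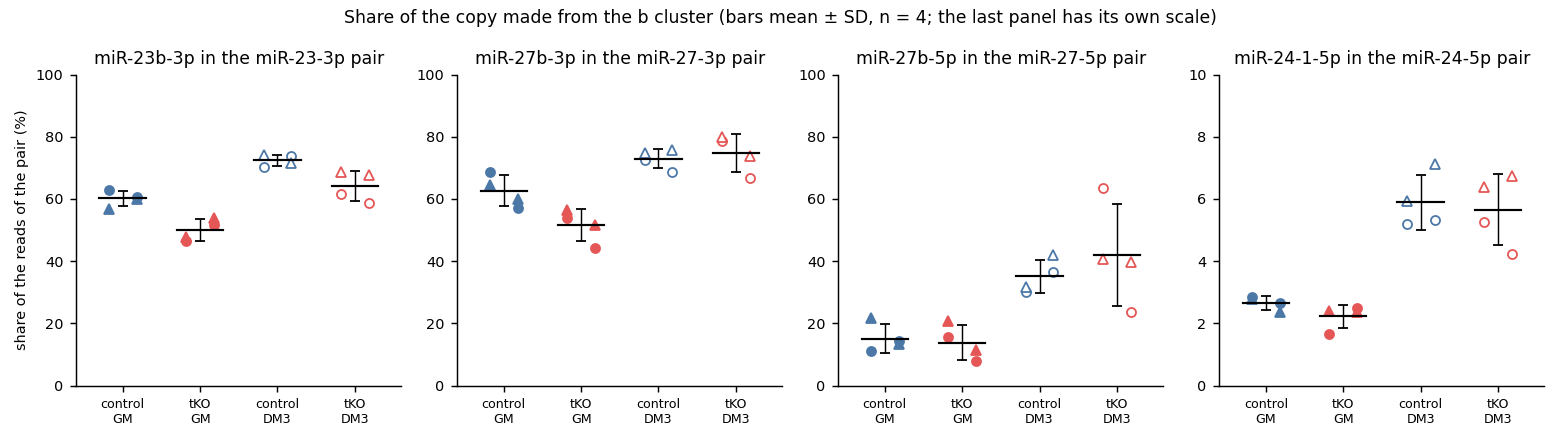
Share of the b copy (percent of the reads of both copies) for miR-23-3p, miR-27-3p, miR-27-5p and miR-24-5p in each library, with the group mean and SD of 4 libraries. The b share is higher in DM3 than in GM for every pair and genotype by mean, and in GM it is lower in the tKO than in control for both 3p pairs.

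Among the 5p arms of miR-27, whose seeds differ, the b copy made up 15.1% ± 4.6 of the pair in control GM and 35.1% ± 5.3 in control DM3. In the tKO it made up 13.9% ± 5.6 in GM and 42.0% ± 16.4 in DM3. The smallest tKO DM3 library was at 63.6%, from 8 reads of miR-27a-5p and 14 of miR-27b-5p. The other tKO DM3 libraries were at 23.8% to 40.6%. The a to b ratio fell by 1.64 in control cells (SE 0.46, limma adjusted p = 0.0224) and by 2.21 in the tKO (SE 0.46, limma adjusted p = 0.00363). The control call was lost without GM line 1 replicate 1 (-1.49, adjusted p = 0.0652). The 5p arms of miR-24, which were not among the a/b pairs tested, moved likewise: miR-24-1-5p was 2.66% of both in control GM and 5.90% in control DM3, and 2.22% and 5.66% in the tKO.

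Reads that end before base 19 cannot tell the copies apart, and between 0.53% and 2.19% of the reads listed as miR-23a-3p matched the b copy over more bases. For miR-27a-3p this share reached 3.48%, and for the b copies the share that matched the a copy was at most 0.880% (miR-23b-3p) and 0.204% (miR-27b-3p). With only reads that carried the telling base, the falls for miR-23 and miR-27 were 0.82 and 0.69 in control cells (limma adjusted p = 0.0167 and 0.0603) and 0.89 and 1.53 in the tKO (adjusted p = 0.00521 and 0.00121). Each call stayed on its side of the threshold.

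Between genotypes, limma called 0 of 3 member pairs in GM and 0 of 3 in DM3, where 0% and 0% of all pairs passed. The b share of miR-23 was lower in the tKO in both media, with no overlap between genotypes: the a to b ratio was higher by 0.60 in GM (limma adjusted p = 0.161) and by 0.54 in DM3 (adjusted p = 0.533). That of miR-27 was higher by 0.66 in GM (adjusted p = 0.255), and in DM3 it stood at -0.16 (adjusted p = 0.855). The interaction called 0 of 3 pairs and 0% of all pairs, with the miR-27 3p pair at -0.82 (unadjusted p = 0.0414, limma adjusted p = 0.824).

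The arms of a hairpin share their precursor, and their ratio was compared over 99 hairpins. With differentiation the 3p arm gained on the 5p arm in the miR-27 hairpins of both clusters. Limma called 2 of the 4 member hairpins in control cells, both higher, where 20.2% of all hairpins were called, and 2 of 4 in the tKO, again both higher, where 20.2% were called. Each genotype had 20 called hairpins, of which 11 were higher in control cells and 9 in the tKO.

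The 3p arm of Mir27a outnumbered its 5p arm 13.4-, 16.6-, 16.1- and 13.95-fold in control GM and 104-, 71.0-, 141- and 60.3-fold in control DM3. In the tKO the fold was 17.9, 22.2, 7.46 and 17.5 in GM and 95.2, 90.5, 33.1 and 63.8 in DM3. No DM3 library came down to a GM library. The log2 ratio rose by 2.57 in control cells (SE 0.39, limma adjusted p = 0.000286) and by 2.09 in the tKO (SE 0.39, limma adjusted p = 0.00204). Without the control DM3 library of line 1 replicate 2 the control rise was 2.35, and without the smallest library the tKO rise was 1.93.

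Mir27b was more one-sided from the start. Its 3p arm outnumbered the 5p arm 152-fold ± 55 in control GM and 472-fold ± 163 in control DM3, and 110-fold ± 31 and 304-fold ± 154 in the tKO. The log2 ratio rose by 1.61 (SE 0.38, limma adjusted p = 0.00536) and by 1.38 (SE 0.38, limma adjusted p = 0.0165). The tKO call was lost without DM3 line 2 replicate 1 (1.07, adjusted p = 0.0666).

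The hairpins of miR-23b and miR-24 did not pass. The miR-23b ratio stood at 0.93 in control cells (SE 0.36, limma adjusted p = 0.0781) and 0.84 in the tKO (adjusted p = 0.0984). For miR-24, whose 3p arm was set against both 5p arms, it stood at -0.39 (adjusted p = 0.309) and 0.37 (adjusted p = 0.365). Between genotypes, limma called 0 of 4 member hairpins in GM and 0 of 4 in DM3, where 0% of all hairpins passed in each. miR-23a-5p, the remaining arm, was listed at 0 to 21.4 CPM and was not tested.

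**Figure D3:**
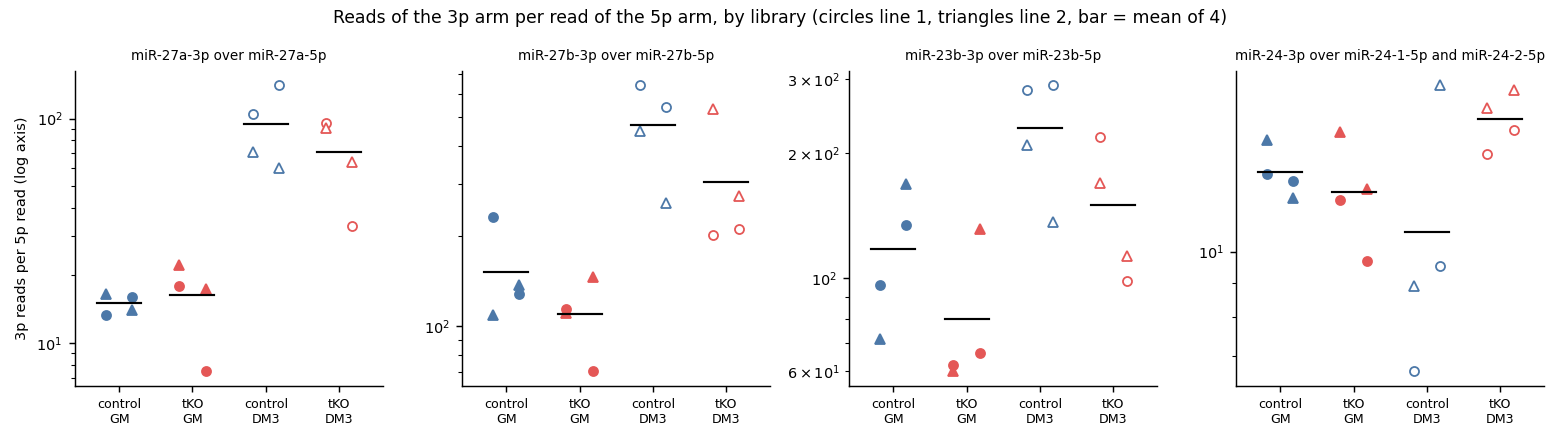
Fold of 3p over 5p reads (log axis) for the hairpins of miR-27a, miR-27b, miR-23b and miR-24 in each library, by group, with a bar at the group mean. The miR-27a fold lies at 7.46 to 22.2 in GM and at 33.1 to 141 in DM3.

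The 3′ ends of the members were read from sequences placed on their own hairpin, where bases are counted from the mature 5′ end and everything after the last matching base is a tail. An added base that equals the next hairpin base is thus counted as templated, so lengths and tails cannot be fully told apart. Starts were sharp: 99.7% to 99.9% of miR-24-3p reads and 99.8% to 99.9% of miR-27a-3p reads began at the mature 5′ end, and 92.6% to 96.4% of miR-23b-3p reads did. So the seed was the listed one in nearly all placed reads of miR-24-3p and miR-27a-3p, and in at least 92.6% of those of miR-23b-3p. The start of miR-24-2-5p was less exact in DM3 (90.6% to 94.3%) than in GM (97.5% to 98.2%).

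Ends varied more, and the miR-23 copies differed from each other. In control GM the templated part of miR-23b-3p ended at base 23 in 74.5% ± 0.8 of reads, past its listed length of 21 nt, while that of miR-23a-3p was spread over base 21 (28.3%), base 22 (29.1%) and base 23 (24.3% ± 1.0). miR-27a-3p ended at base 20 in 83.0% of reads and miR-27b-3p at base 21 in 55.9%, although both are listed at 21 nt. miR-24-3p ended at base 22 in 49.4% and at base 20 in 29.1%.

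With differentiation miR-23a-3p became shorter. Reads ending at base 23 were 24.3% ± 1.0 in control GM and 10.2% ± 1.7 in control DM3, and 22% ± 2.0 and 9.46% ± 1.8 in the tKO. The mean templated length went from 21.65 to 21.27 nt in control cells (difference -0.38 nt, SE 0.05, limma adjusted p = 0.000258) and fell by 0.40 nt in the tKO (limma adjusted p = 0.000122). Of the 9 members with enough reads, limma called 3 in control cells, 1 longer and 2 shorter, where 11.8% of names were called, and 4 in the tKO, 1 longer and 3 shorter, where 12.7% were. The interaction called the length of 0 of 9 members and 0% of names.

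miR-24-3p was also shorter in DM3, by 0.19 nt in control cells (limma adjusted p = 0.00348) and 0.12 nt in the tKO (adjusted p = 0.0424). The tKO call of miR-24-3p was lost in 11 of the 16 fits that left out 1 library (adjusted p up to 0.127), among them the control DM3 library of line 1 replicate 2 (adjusted p = 0.0520). miR-24-2-5p was longer, by 0.14 nt (adjusted p = 0.00594) and 0.19 nt (adjusted p = 0.00122). With lengths as listed, tails included, neither miR-24-2-5p call stood (adjusted p = 0.109 and 0.0880).

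miR-23b-3p was shorter in DM3 by 0.23 nt in the tKO (limma adjusted p = 0.00165), and stood at -0.13 nt in control cells (adjusted p = 0.0637). In DM3 it differed between genotypes: its templated length was 22.24 ± 0.06 nt in the tKO and 22.46 ± 0.06 nt in control cells (difference -0.21 nt, SE 0.04, limma adjusted p = 0.0323). This was the 1 member of 9 called between genotypes in DM3, where 0.452% of names were called, and the call was lost in 10 of the 16 fits without 1 library (adjusted p up to 0.150), with -0.19 nt without the smallest library (adjusted p = 0.136) and -0.20 nt without the control DM3 library of line 1 replicate 2 (adjusted p = 0.150). In GM limma called 0 of 9, where 0% of names were called.

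**Figure D4:**
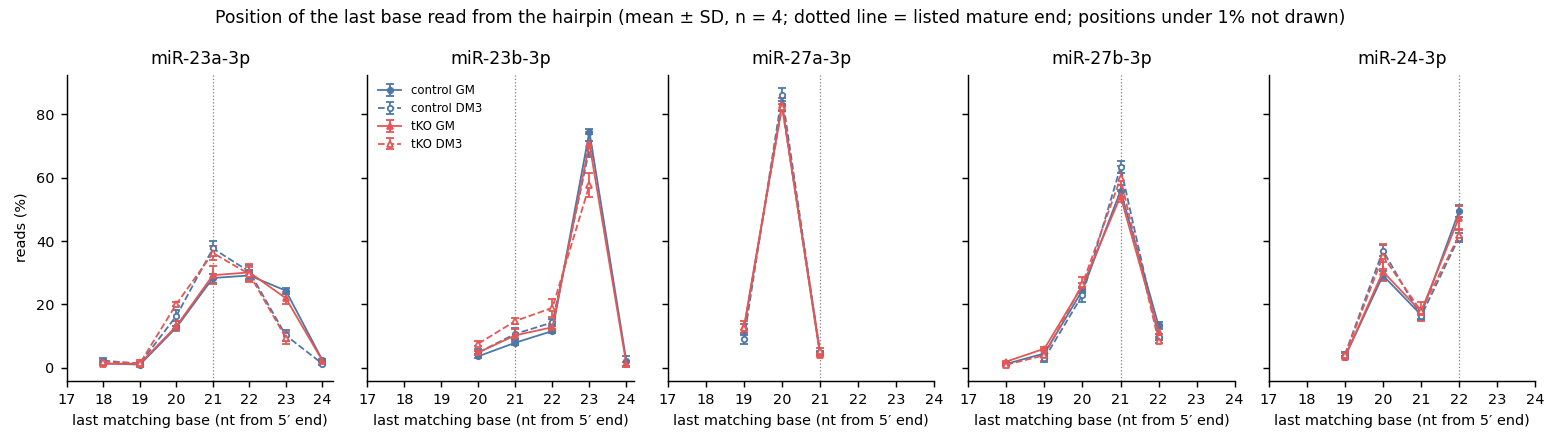
Share of reads (percent) by the last templated base of the 3p arms, as group means with SD over 4 libraries, with a dotted line at the listed mature end. miR-23a-3p loses reads ending at base 23 in DM3, and miR-23b-3p peaks at base 23 in every group.

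In control cells, differentiation was accompanied by fewer untemplated tails on miR-23a-3p, miR-23b-3p, miR-24-3p and miR-27a-5p and by more on miR-27a-3p. There limma called 5 of the 9 members tested for their share of tailed reads, 1 higher and 4 lower, where 28.5% of 246 names were called, 4 of them higher and 66 lower. In the tKO 2 of 9 were called, both lower, where 7.32% of names were. The interaction called 0 of 9 members and 0% of names, with miR-27a-5p at 1.05 in log2 odds (unadjusted p = 0.0172, limma adjusted p = 0.407). Tails called in 1 genotype only are thus not shown to differ between genotypes.

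miR-23b-3p was tailed in most reads of growing cells. The tailed share was 69.4%, 68.2%, 72.1% and 68.9% in control GM and 51.6%, 52.4%, 50.0% and 52.1% in control DM3. In the tKO it was 60.8%, 62.5%, 67.3% and 69.97% in GM and 39.3%, 41.5%, 42.3% and 46.4% in DM3. The media did not overlap in either genotype, and the log2 odds fell by 1.11 in control cells (SE 0.13, limma adjusted p = 0.000215) and by 1.35 in the tKO (SE 0.13, limma adjusted p = 2.05e-05). Without the control DM3 library of line 1 replicate 2 the control fall was 1.08, and without the smallest library the tKO fall was 1.29.

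Most of these tails were a single U. Reads of miR-23b-3p with 1 added U were 48.0% ± 1.8 in control GM and 35% ± 1.0 in control DM3, and 44.8% and 28.9% in the tKO, while 1 added A stood at 8.57% and 8.46% in control cells. Among reads of 1 length the direction of the share with 1 added U depended on the length. Of miR-23b-3p reads whose templated part ended at base 23, the share with 1 added U was 53.7% ± 3.4 in control GM, 33.5% ± 2.6 in control DM3, 50.4% in tKO GM and 24.3% ± 3.2 in tKO DM3, lower in DM3. Among reads ending at base 22 the share with 1 added U was higher in DM3. It was 45.7% and 54.3% in control cells and 42.5% and 49.3% in the tKO. At base 20 it was 58.6% and 65.2% in control cells and 59.5% and 60.9% in the tKO. The share with any tail at base 22 was instead lower in DM3 by mean, at 72.7% and 68.8% in control cells. In the tKO that share was 66.0% and 58.4%. At base 20 the share with any tail was 89.2% and 89.5% in control cells and 86.0% and 86.6% in the tKO. These shares by length carry no test.

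miR-23a-3p was tailed in 38.2% ± 2.7 of reads in control GM and 25.1% ± 3.0 in control DM3, and in 34.3% ± 2.9 and 25.5% ± 1.0 in the tKO. Its log2 odds fell by 0.88 (limma adjusted p = 0.00087) and 0.61 (adjusted p = 0.0115). The tailed share of miR-23a-3p depended on where the templated part ended. In control GM it was 77.9% at base 23, 22.6% at base 22, 7.88% at base 21 and 69.2% at base 20. In control DM3 it was 61.3%, 16.1%, 5.27% and 63.4%. How much of the fall in tails goes with the change in ends was not tested. miR-24-3p fell from 21.7% ± 0.6 to 15.9% ± 2.8 in control cells (log2 odds -0.56, adjusted p = 0.00836) and stood at 19% and 15.5% in the tKO (-0.36, adjusted p = 0.153). miR-27a-5p went from 12.2% ± 4.7 to 5.02% ± 1.5 in control cells (-1.23, adjusted p = 0.00614), and in the tKO its log2 odds stood at -0.17. These DM3 values rest on few reads. The control DM3 libraries held 49, 117, 117 and 851 placed reads of miR-27a-5p, and the smallest library, in tKO DM3, held 6.

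Of the miR-27 3p copies, which differ by 1 base, miR-27a-3p passed in control cells and miR-27b-3p did not. miR-27a-3p was tailed in 50.2%, 46.8%, 50.4% and 49.9% of reads in control GM and in 59.6%, 59.3%, 58.9% and 55.5% in control DM3, a rise of 0.52 in log2 odds (SE 0.14, limma adjusted p = 0.0120). A single added A accounted for 31.0% ± 0.4 and 37.8% ± 1.8 of its reads. miR-27b-3p was tailed in 32.1% ± 2.4 and 26.9% ± 3.4 of reads (-0.36, adjusted p = 0.0625). Its level depended on the placing: across libraries it was 28.3% after placing and 44.7% with tails as listed, while miR-27a-3p was at 51.6% and 51.5%. In the tKO neither passed, at 0.30 (adjusted p = 0.218) and -0.17. The difference between the copies was itself not tested.

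Between genotypes limma called the tailed share of 0 of 9 members in GM and 0 of 9 in DM3, where 0% of names were called in each. miR-23b-3p was tailed less in every tKO DM3 library than in any control DM3 library (log2 odds -0.53, unadjusted p = 0.00132, limma adjusted p = 0.272), and in GM it stood at -0.29 (adjusted p = 0.621). In DM3 miR-27a-5p lay the other way, at 0.78 (unadjusted p = 0.0134, limma adjusted p = 0.300), and it too did not pass. The smallest library, in tKO DM3, held only 6 placed reads of miR-27a-5p, with 0% tailed.

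**Figure D5:**
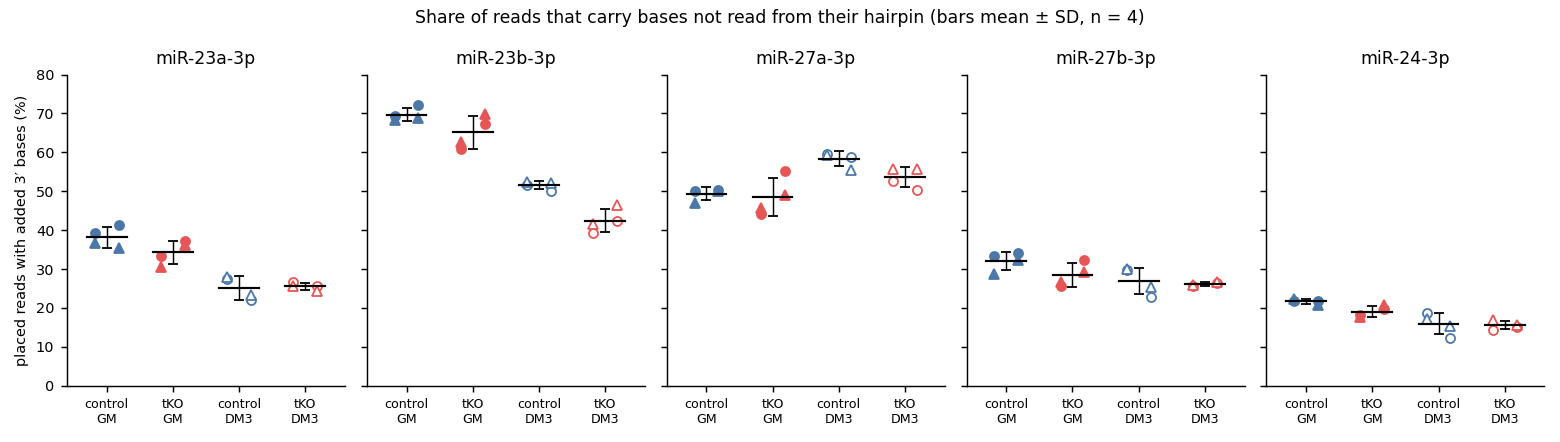
Share of reads with an untemplated 3′ tail (percent) for the 3p arms in each library, with the group mean and SD of 4 libraries. miR-23b-3p drops from 60.8% to 72.1% in GM to 39.3% to 52.4% in DM3, while miR-27a-3p is higher in DM3 than in GM in control cells.

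Across the 16 libraries, each 3p arm was set against the 239 names with at least 100 CPM, as a description over libraries that share their lines, media and scaling. The names most like miR-23a-3p in log2 scaled CPM were miR-106b-5p (r = 0.93), miR-15b-3p (0.91) and miR-221-3p (0.89). For its b copy miR-23b-3p they were miR-34c-5p (0.87), miR-34b-5p (0.84) and miR-99a-5p (0.84), so that no name was shared between the copies. miR-27a-3p was most like miR-34c-5p (0.81), miR-148b-3p (0.79) and miR-345-3p (0.76), and miR-27b-3p most like miR-1981-3p (0.83), miR-148b-3p (0.82) and miR-199a-5p (0.81). miR-24-3p was most like miR-34c-5p (0.90), miR-152-5p (0.88) and miR-34a-5p (0.82). Among the members themselves, miR-24-3p went with miR-27a-3p (r = 0.86) and with miR-23b-3p (0.74), and miR-27b-3p with miR-23b-3p (0.72). miR-27a-3p also went with miR-24-2-5p (0.83) and miR-23a-3p with miR-27b-5p (0.78), while miR-23a-3p and miR-27a-3p of the same cluster stood at 0.43.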

How the data were processed

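Reads were taken from the tables of the annotation tool unitas that were deposited for each of the 16 libraries, in which each line gives a sequence under a microRNA name with its reads, mismatches and 3′ tail. The values deposited by the authors are expected counts, not normalized: 0.625% of the lines hold part of a read. The read, sequence and tail columns are named in the file headers. Libraries were made with the NEBNext Small RNA kit from 0.5 µg of total RNA, with gel-selected inserts, per the labels' protocols. cutadapt 1.15, STAR 2.5.4 and the build mm10 are named in the submitters' processing notes, with no role given. No molecular identifiers are described, so PCR copies count as reads, and intervals cover counting error only.

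Reads were summed per name (hairpin copies that give the same mature arm were merged), rounded to whole counts and fitted with edgeR 4.0.16 in R 4.3.3: TMM scaling, filterByExpr by group, all 16 libraries in 1 quasi-likelihood fit with 1 coefficient per group and no block, Benjamini-Hochberg adjustment over 807 names and a threshold of 0.05. CPM is taken over all reads listed under any name of the library. Ratios of copies and arms (pseudocount 0.5, at least 20 CPM per name), log2 odds of tails and templated lengths (at least 50 CPM per name) were fitted with limma 3.58.1 in the same design. DESeq2 1.42.0 served as an alternative. The scripts were tested on simulated data.

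For some members, such as miR-27b-3p and miR-23a-3p, the tail column counts bases that match the hairpin as a tail. Tails and lengths were therefore read after placing each sequence on its own GENCODE M21 (GRCm38) hairpin with an exact match of at least 16 bases, a start within 3 bases of the mature start and a tail of at most 3 bases, dropping sequences that another hairpin matched over more bases. This placed 90.0% of rebuilt reads. The columns as listed were an alternative. By them miR-27b-3p was tailed in 44.7% of reads, against 28.3% after placing, and miR-23a-3p in 45.3% against 33.2%. The share hardly moved for miR-27a-3p (51.5% and 51.6%), miR-23b-3p (60.7% and 60.9%) and miR-24-3p (18.4% and 18.5%).

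The same lines were grown in both media, so the line pairs GM with DM3 libraries: deviations from the group mean correlated at a mean of 0.147 (lowest -0.228) for GM and DM3 libraries of the same line and -0.138 for those of different lines. The line block is printed where it changed a call. Members and lists were chosen with earlier results of these data known. All 10 members and, for each 3p arm, the 3 names with the highest correlation are named.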

Additional observations from a re-analysis of the deposited data

Results flagged for a closer look

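Each group of 4 libraries was searched for a library whose gap to its nearest neighbour took up most of the group's range. Of 108 groups of member values, 8 held such a library, where chance gives about 1 in 20. In the tKO DM3 library of line 1 replicate 1, the smallest one, miR-24-2-5p was at 957.5 CPM, against 1730 to 1835 CPM in the other tKO DM3 libraries. In the control DM3 library of line 2 replicate 2, miR-23b-3p was at 7624 CPM, against 5688 to 5965 CPM. In the tKO GM library of line 2 replicate 2, miR-23b-3p outnumbered miR-23b-5p 131.5-fold, against 59.8- to 66.1-fold. In the tKO GM library of line 1 replicate 1, miR-24-2-5p outnumbered miR-24-1-5p 59.3-fold, against 39.1- to 41.4-fold, and 15% of miR-24-1-5p reads were tailed, against 6.86% to 8.03%. miR-27a-3p was tailed in 55.5% of reads in the control DM3 library of line 2 replicate 2, against 58.9% to 59.6%, and in 46.8% in the control GM library of line 2 replicate 1, against 49.9% to 50.4%. miR-27b-5p was tailed in 4.76% of reads in the control DM3 library of line 1 replicate 1, against 8.96% to 9.80%. No cause was tested.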

How the results depend on the processing

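Apart from left-out libraries, 98 of 109 values that answer a comparison and 474 of 534 single values kept their direction and side of the threshold. Called members numbered 1 in control cells with no filter on low counts and with the replicates of a line summed, and 1 in the tKO under both and with only the compared groups fitted. Leaving out 1 library, or all libraries of 1 replicate number, gave 1 to 4 called members in control cells and 0 to 3 in the tKO. Replicate numbers did not pair the samples (mean correlation of deviations 0.101 with the same number, lowest -0.46, and -0.095 with different numbers). With the replicate block the counts of called members did not move, and the miR-27 3p ratio in control cells passed at -0.68 (limma adjusted p = 0.0234). It also passed, at -0.81, with reads that reached 2 bases past the telling base (adjusted p = 0.0238), and it ranged from -0.81 to -0.57 with libraries left out. For the ratios between genotypes, a permutation of 4 against 4 libraries, exact and for a single pair, takes the replicates of a line as independent and is fixed at its smallest p by any full separation, so the separated ratios (0.60 and 0.66 in GM, 0.54 in DM3) gain nothing from it. With reads 2 bases past the telling base, the miR-27 3p ratio between genotypes in DM3 reversed to 0.10.

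The reversals were of log2 differences that no test had called. miR-27a-3p between genotypes in GM became 0.042 with DESeq2's size factors, 0.042 by DESeq2's Wald test, 0.044 by total counts, 0.0094 with a mean of at least 10 CPM, 0.013 with the replicate block, 0.031 with only the compared groups, 0.047 without mismatched reads, 0.15 with hairpin-matched reads and 0.015 with names as listed. With differentiation in control cells, total counts gave miR-23b-3p 0.20 and miR-24-3p 0.32, hairpin-matched reads 0.16 and 0.29, and reads without mismatch 0.096 and 0.23. Only the compared groups gave miR-24-3p 0.0067. With no filter miR-24-2-5p was -0.048 and miR-27a-3p -0.050, and miR-27b-3p between genotypes in DM3 was 0.0093. With replicates summed miR-24-2-5p was -0.088. In the tKO, total counts gave miR-23b-5p 0.050, miR-24-2-5p 0.053, miR-27a-3p 0.19 and miR-27b-5p 0.23. Replicates summed gave miR-23b-5p 0.15, miR-27a-3p 0.24 and miR-27b-5p 0.35. For miR-27a-3p and miR-27b-5p, reads without mismatch gave 0.065 and 0.24 and hairpin-matched reads 0.016 and 0.19. miR-27b-5p was 0.022 with only the compared groups and 0.017 with names as listed.

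With libraries left out, ranges that crossed 0 were, between genotypes in GM, -0.64 to 0.099 for miR-24-3p and -0.51 to 0.39 for miR-27a-3p. In DM3 they were -0.038 to 0.71 for miR-23a-3p, -0.52 to 0.29 for miR-23b-3p, -0.11 to 0.42 for miR-24-3p, -0.55 to 0.077 for miR-27a-3p and -0.45 to 0.20 for miR-27b-3p. For control differentiation they were -0.24 to 0.71 for miR-24-2-5p, -0.33 to 0.066 for miR-24-3p and -0.018 to 0.34 for miR-27a-3p. For tKO differentiation they were -0.70 to 0.43 for miR-23b-5p, -0.37 to 0.074 for miR-24-2-5p, -0.091 to 0.64 for miR-24-3p, -0.60 to 0.45 for miR-27a-3p and -0.66 to 0.68 for miR-27b-5p. The causes were not tested.

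Some calls were gained without 1 library. In control cells these were the miR-27 3p ratio without tKO GM or tKO DM3 line 1 replicate 2 (adjusted p = 0.0464 and 0.0436), the tailed share of miR-27b-3p in 3 fits (adjusted p = 0.0403 to 0.0442), the length of miR-23b-3p without tKO DM3 line 1 replicate 1 (0.0409), miR-27b-3p without tKO GM line 1 replicate 2 (0.96, adjusted p = 0.0441), miR-23b-5p without control DM3 line 2 replicate 2 (-1.72, 0.0204) and the miR-23b arm ratio without the same library (1.14, 0.0327). In the tKO they were the miR-23b arm ratio without tKO GM line 2 replicate 2 (1.11, 0.0409) and the tailed share of miR-24-3p without control DM3 line 1 replicate 2 (0.0485). In the smallest library 3 reads are 26.6 CPM, which bounds what can be seen of miR-23b-5p and miR-24-1-5p there.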
